A study of Mus musculus with 6 samples.

Results

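The miR-15/16 seed family was examined in lung RNA on 1-dye miRNA arrays. Its 7 members are miR-15a-5p, miR-15b-5p, miR-16-5p, miR-195a-5p, miR-497a-5p, miR-322-5p and miR-503-5p, which were taken by name from the 1963 mouse miRNA probes of the array. All 7 were among the 275 probes bright enough to be tested, where a probe had to be detected on at least 3 of 6 arrays. The arrays held lung RNA of 3 untreated WT mice, which received saline only, and of 3 WT-BLM mice, which received 1.5 U/kg bleomycin (BLM) into the trachea, taken on day 21 with 1 mouse per array. BLM is a cytotoxic agent with which fibrosis of the lung is induced. Both groups were wild-type C57Bl6 mice aged 8 to 10 weeks, and the IKBM strain was not analysed here. Whole lung was used, so that fewer cells of a type and less RNA per cell cannot be told apart in any value below.

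A mature miRNA guides the Argonaute protein to messenger RNAs, mainly by pairing of its seed, which is bases 2 to 8 from the 5′ end. The miR-15/16 family is known as a brake on cell division and survival, since its targets include messages of D-type and E-type cyclins and of the anti-apoptotic protein BCL2, and the miR-15a and miR-16 locus is often deleted in chronic lymphocytic leukaemia. Members are found in most tissues, the lung included, and are made in pairs, as neighbouring hairpins of a shared transcript.

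The mature sequences are shown because the family is defined by them and because the probes must tell near-identical RNAs apart. The target sequence of each member on the array equals the RefSeq mature sequence for 7 of 7 members. They are printed from 5′ to 3′ with the seed in capitals.
mmu-miR-15a-5p: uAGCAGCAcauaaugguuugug
mmu-miR-15b-5p: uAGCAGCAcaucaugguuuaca
mmu-miR-16-5p: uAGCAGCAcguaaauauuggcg
mmu-miR-195a-5p: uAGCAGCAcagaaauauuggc
mmu-miR-497a-5p: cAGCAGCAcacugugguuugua
mmu-miR-322-5p: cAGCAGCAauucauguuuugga
mmu-miR-503-5p: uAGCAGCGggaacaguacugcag
Of these, 6 share the seed AGCAGCA, and miR-503-5p carries AGCAGCG. Against miR-16-5p, the seed change of miR-503-5p is A8G, counted from base 1 at the 5′ end with the base of miR-16-5p first. The members differ mainly after the seed. The sequences of miR-16-5p and miR-195a-5p are equal at 19 of 21 bases and differ by G10A and U11G, while miR-15a-5p and miR-15b-5p are equal at 18 of 22 and differ by A12C, G20A, U21C and G22A. In contrast, miR-16-5p and miR-503-5p are equal at 12 of 22.

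In the RefSeq annotation of the mouse assembly GRCm38.p6 the members lie at 4 loci. The sequence of miR-15a-5p is at chr14:61632075-61632096 on the minus strand and that of miR-16-5p, from the Mir16-1 gene, at chr14:61631936-61631957, both within the span of the long non-coding RNA gene Dleu2. A second copy of miR-16-5p, from Mir16-2, is at chr3:69009918-69009939 on the plus strand beside miR-15b-5p at chr3:69009775-69009796, both within the span of Smc4, which encodes a condensin subunit. The pair of miR-497a-5p (chr11:70234730-70234751) and miR-195a-5p (chr11:70235062-70235082) is on the plus strand of chromosome 11. The pair of miR-322-5p (chrX:53054306-53054327) and miR-503-5p (chrX:53054027-53054049) is on the minus strand of the X chromosome, within the span of the long non-coding RNA gene C430049B03Rik. Since the mature miR-16-5p is the same from both genes, its probe cannot tell chromosome 14 from chromosome 3.

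Each miRNA was measured by 2 spots on each array. Detection required a mean intensity above the median of 800 empty spots by more than 3 of their SDs. That SD was 59.3 for WT mouse 3 and 45.2 for WT-BLM mouse 1, but 8.01 to 18.1 for the other mice, and these noisy arrays detected 132 and 176 probes where the others detected 270 to 365. The lung identity of the samples was checked with miRNAs known from single cell types. The endothelial miR-126a-3p, the epithelial miR-200b-3p and miR-200c-3p, the smooth muscle miR-143-3p and miR-145a-5p and the leukocyte miR-142a-3p and miR-223-3p were each detected on all 6 arrays, while of 6 miRNAs of other tissues the liver miR-122-5p and the brain miR-124-3p were detected on 1 array each and the brain miR-9-5p on none. Muscle miRNAs were present. The heart and skeletal muscle miR-1a-3p was detected on all 6 arrays, at log2 intensities of 11.35, 12.96 and 9.63 without BLM and 10.46, 9.84 and 9.84 with BLM, and miR-133a-3p on 5, so that WT mice 2 and 1 were highest. The skeletal muscle miR-206-3p stood at 10.32 in WT mouse 2 against 6.12 to 6.44 in the others. No tested miRNA of the marker lists had an adjusted p under 0.05 in limma. The summed linear signal of the 2 endothelial miRNAs was 7120 to 16603 without BLM and 16164 to 21746 with BLM, that of the 4 epithelial ones 5144 to 8362 and 6656 to 7937, and that of the 3 ciliated cell ones 1272 to 1788 and 1700 to 2059.

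Values below are log2 intensities after background correction and quantile normalization, and where 3 values of a group are listed they are those of mice 1, 2 and 3. Probes bind their targets with unequal strength, so that the order of the members by signal is not an order of molecule numbers. By signal, miR-195a-5p and miR-16-5p were brightest, with mean log2 intensities in untreated WT lungs of 12.80 ± 0.24 (SD, n = 3 mice) and 12.07 ± 0.65. Next came miR-15b-5p at 10.67 ± 0.34, miR-497a-5p at 10.12 ± 0.35, miR-322-5p at 9.74 ± 0.50 and miR-15a-5p at 9.38 ± 0.82. Between these neighbours the ranges over the 3 mice overlapped, except that every value of miR-16-5p was above every value of miR-15b-5p. The dimmest was miR-503-5p at 7.47 ± 0.10, below every other member on each of the 6 arrays. In WT-BLM lungs the means were 12.47 ± 0.31 for miR-195a-5p, 11.87 ± 1.03 for miR-16-5p, 10.53 ± 0.04 for miR-15b-5p, 10.27 ± 0.23 for miR-497a-5p, 9.98 ± 0.24 for miR-322-5p, 9.84 ± 1.05 for miR-15a-5p and 7.11 ± 0.23 for miR-503-5p.

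**Figure D1:**
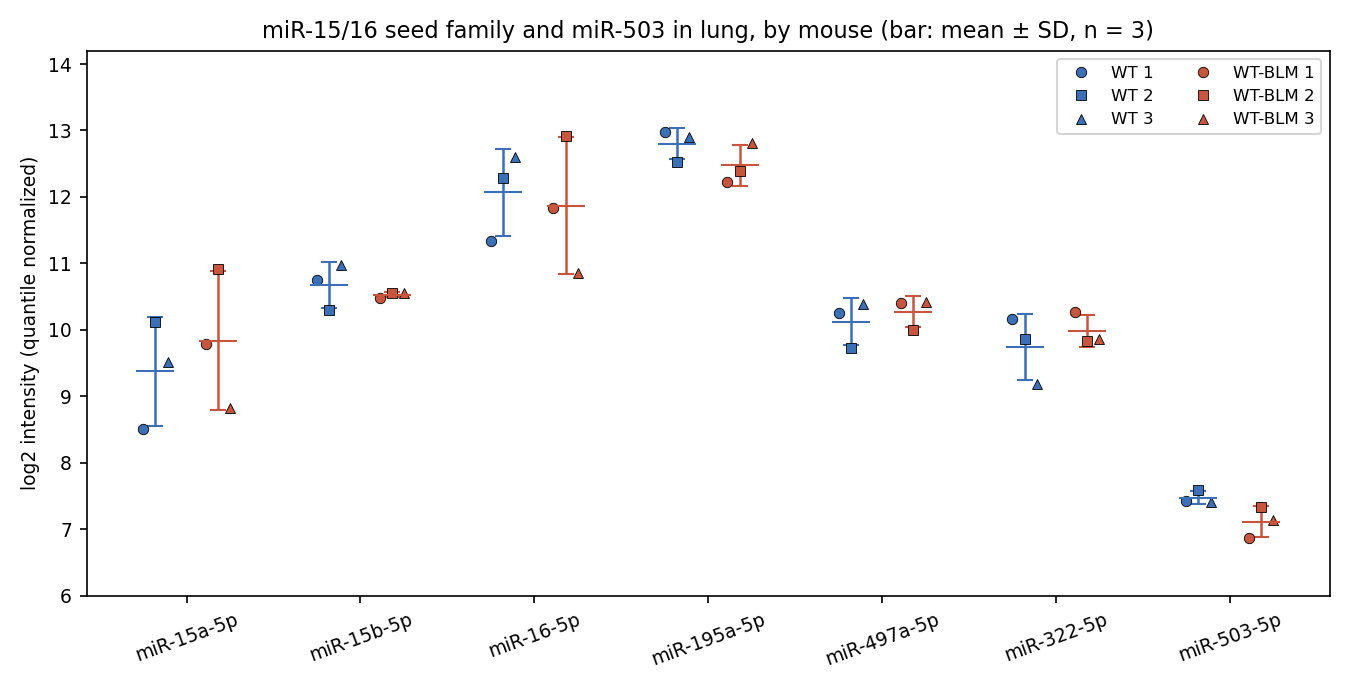
Log2 intensity (vertical axis, quantile normalized) of the 7 members in each of 3 untreated WT (blue) and 3 WT-BLM mice (red), with a point per mouse and bars for the mean ± SD. The points of miR-15a-5p and miR-16-5p are spread over 2.41 and 2.06 on the log2 scale, those of the 5 others over 0.67 to 1.08, and only for miR-503-5p do the groups not overlap.

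The first question was whether BLM changed the level of any member. When BLM-treated and untreated lungs were compared with limma, 0 of 7 members had a Benjamini-Hochberg adjusted p under 0.05, where the share over all 275 tested miRNAs was also 0%. At an unadjusted p under 0.05 in limma there were 0 of 7 members, and 1.82% of all tested miRNAs. Of the members, 3 had a mean higher and 4 a mean lower in WT-BLM lungs, but miR-497a-5p and miR-322-5p were at -0.07 and -0.0015 under scaling to the 75th percentile, which moved the median of all tested miRNAs from 0.04 to -0.22. Relative to that median they were at 0.15 and 0.22, beside 0.11 and 0.20 after quantile normalization, and no member changed sides in this way under any of the 6 scalings and value sets tried. Their median log2 fold change was -0.14, beside 0.04 over all tested miRNAs. Without the 2 noisy arrays the median of the members was 0.04, and the members lay between -0.29 for miR-503-5p and 0.59 for miR-15a-5p. The groups did not overlap for 1 of 7 members, miR-503-5p, beside 4.73% of all tested miRNAs in either direction and 0.727% in the direction lower in WT-BLM lungs.

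**Figure D2:**
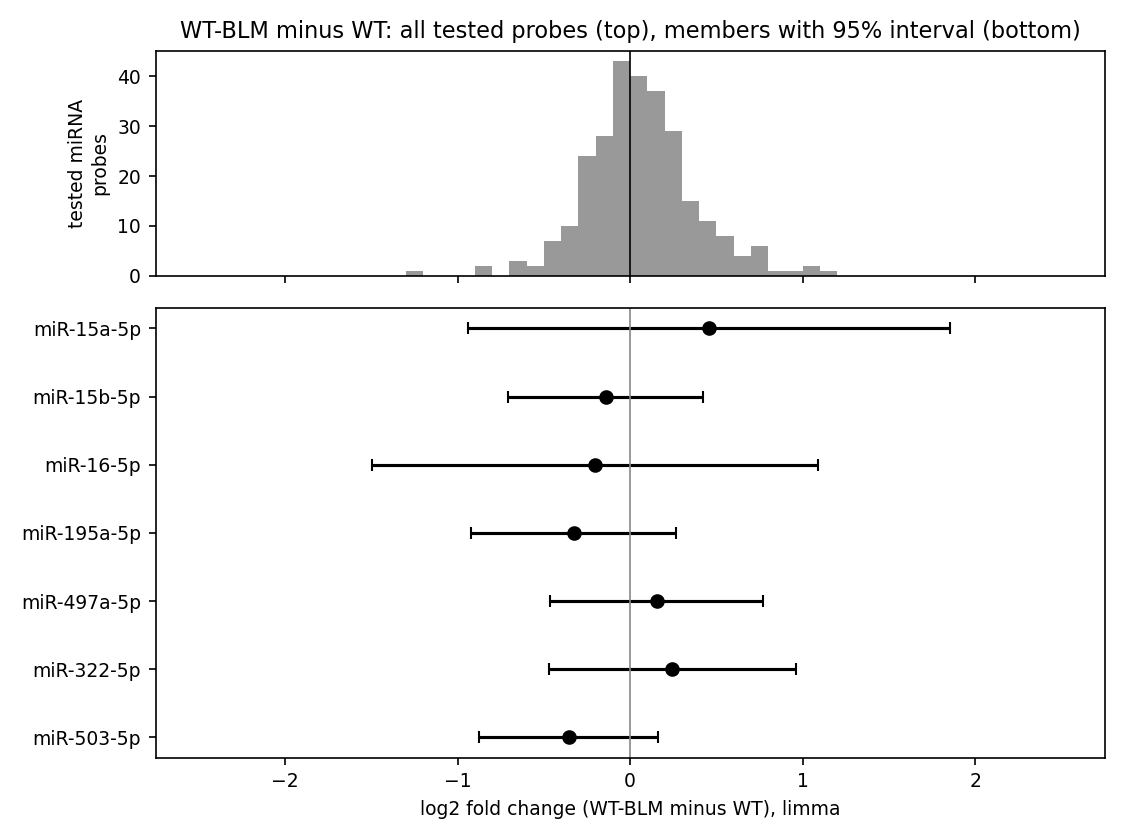
Log2 fold change of WT-BLM over untreated WT lungs from limma (horizontal axis), as a histogram of the 275 tested miRNAs (top) and for the 7 members with 95% intervals (bottom). Each interval of a member includes 0, and those of miR-15a-5p and miR-16-5p are the widest of the 7.

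The levels of miR-15a-5p and miR-16-5p, the chromosome 14 pair, varied most of the members from mouse to mouse. The log2 intensity of miR-15a-5p was 8.50, 10.12 and 9.52 without BLM and 9.79, 10.91 and 8.82 with BLM. The lowest value was thus in a WT mouse and the highest in a WT-BLM mouse, and the groups overlapped. The log2 fold change was 0.46 (standard error 0.60, 95% interval -0.94 to 1.86, adjusted p = 1 in limma), an interval that allows levels from 0.521-fold to 3.62-fold of those in untreated WT lungs. Omission of WT-BLM mouse 2 turned this difference to -0.08. In the authors' normalized intensities, which are linear, miR-15a-5p was 264, 986 and 593 without BLM and 795, 1748 and 320 with BLM. Both sets of values place WT-BLM mouse 2 highest and WT mouse 1 lowest.

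On the log2 scale miR-16-5p stood at 11.34, 12.28 and 12.60 without BLM and 11.84, 12.91 and 10.86 with BLM. Its highest and its lowest value were both in WT-BLM mice, so that the spread among treated mice covered all of the untreated ones. The log2 fold change was -0.20 (standard error 0.55, 95% interval -1.50 to 1.09, adjusted p = 1 in limma), and it was 0.30 without WT-BLM mouse 3 and 0.07 without WT mouse 3. The spots showed this spread before any normalization. Above the empty spots, both spots of miR-16-5p read 11091 and 10348 on the array of WT-BLM mouse 2 and 1760 and 1817 on that of WT-BLM mouse 3. On the array of WT mouse 1 they were further apart, at 1743 and 2894, as were those of miR-15a-5p, at 216 and 428.

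Within groups, the SD between mice was 0.94 for miR-15a-5p and 0.86 for miR-16-5p on the log2 scale, ranks 13 and 19 from the top of the 275 tested miRNAs, whose median was 0.37. For the 5 other members it lay between 0.18 for miR-503-5p and 0.39 for miR-322-5p. The chromosome 3 partner of miR-16-5p did not share this spread. Normalized values of miR-15b-5p were 10.74, 10.30 and 10.97 without BLM and 10.49, 10.56 and 10.55 with BLM, with an SD within groups of 0.24. Nor did miR-195a-5p share it, although it differs from miR-16-5p by 2 bases only.

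**Figure D3:**
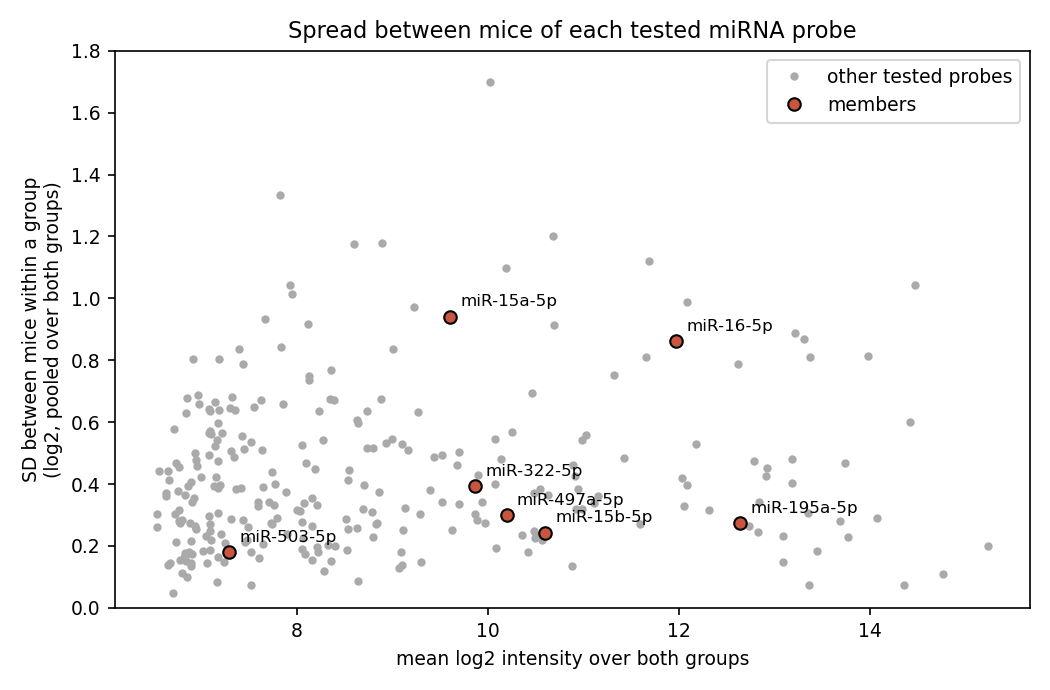
SD between mice within a group (vertical axis, log2, pooled over both groups) against mean log2 intensity (horizontal axis) for the 275 tested miRNA probes, with the 7 members in red. The points of miR-15a-5p (0.94) and miR-16-5p (0.86) lie above those of the 5 other members (0.18 to 0.39).

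Across the 6 mice the levels of miR-15a-5p and miR-16-5p had a Pearson r of 0.84 (exact permutation p = 0.042, 0.68 after Benjamini-Hochberg adjustment over the 21 pairs of members) and a Spearman rho of 0.77 (exact permutation p = 0.10, adjusted 0.69). This was the highest r of the 21 pairs, the next being 0.65 for miR-15b-5p with miR-195a-5p, and no pair passed the threshold after adjustment. Without the 2 mice farthest from the median of miR-15a-5p the r was 0.75. For the deviations from the group means it was 0.93. With other normalizations, background corrections and the authors' values (log2 after adding 50) the r lay between 0.84 and 0.93. The 6 points of each r share their arrays, whose noise differed. The tested miRNAs whose pattern over the 6 arrays was most like that of miR-15a-5p were miR-22-3p (r = 0.96) and miR-19b-3p (r = 0.96), and for miR-16-5p they were miR-17-5p (r = 0.93) and miR-1839-5p (r = 0.92). Both miR-17-5p and miR-19b-3p arise from the miR-17-92 cluster, a group of miRNAs known to promote proliferation. The cluster did not share the spread as a whole. The SD within groups was 0.67 for miR-17-5p, but 0.13 for miR-19b-3p, 0.14 for miR-18a-5p, 0.05 for miR-19a-3p and 0.14 for miR-20a-5p. For miR-15b-5p the most alike were miR-191-5p (r = 0.91) and miR-192-5p (r = 0.88), for miR-195a-5p miR-340-3p (r = 0.96) and miR-7a-1-3p (r = 0.96), for miR-497a-5p miR-429-3p (r = 0.97) and miR-155-5p (r = 0.95), and for miR-322-5p miR-709 (r = 0.96) and miR-200a-3p (r = 0.96). Some of these depended on the normalization. Under the alternatives the r stayed at 0.93 or above for miR-15a-5p with miR-22-3p, miR-16-5p with miR-17-5p and miR-497a-5p with miR-429-3p, while its lowest value was 0.35 for miR-15a-5p with miR-19b-3p, 0.74 for miR-16-5p with miR-1839-5p, 0.50 and 0.69 for miR-15b-5p with miR-191-5p and miR-192-5p, 0.08 and 0.24 for miR-195a-5p with miR-340-3p and miR-7a-1-3p, 0.44 for miR-497a-5p with miR-155-5p, and 0.82 and 0.10 for miR-322-5p with miR-709 and miR-200a-3p. Blood cell miRNAs were read beside them, and their part in the spread was not tested. The 3 erythrocyte miRNAs (miR-451a, miR-144-3p and miR-486a-5p) passed the filter, and their summed linear signal ranged from 13297 to 20558 without BLM and from 15713 to 20432 with BLM. For the 4 leukocyte miRNAs, all tested, the sum ranged from 4639 to 4908 and from 4142 to 5717.

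**Figure D4:**
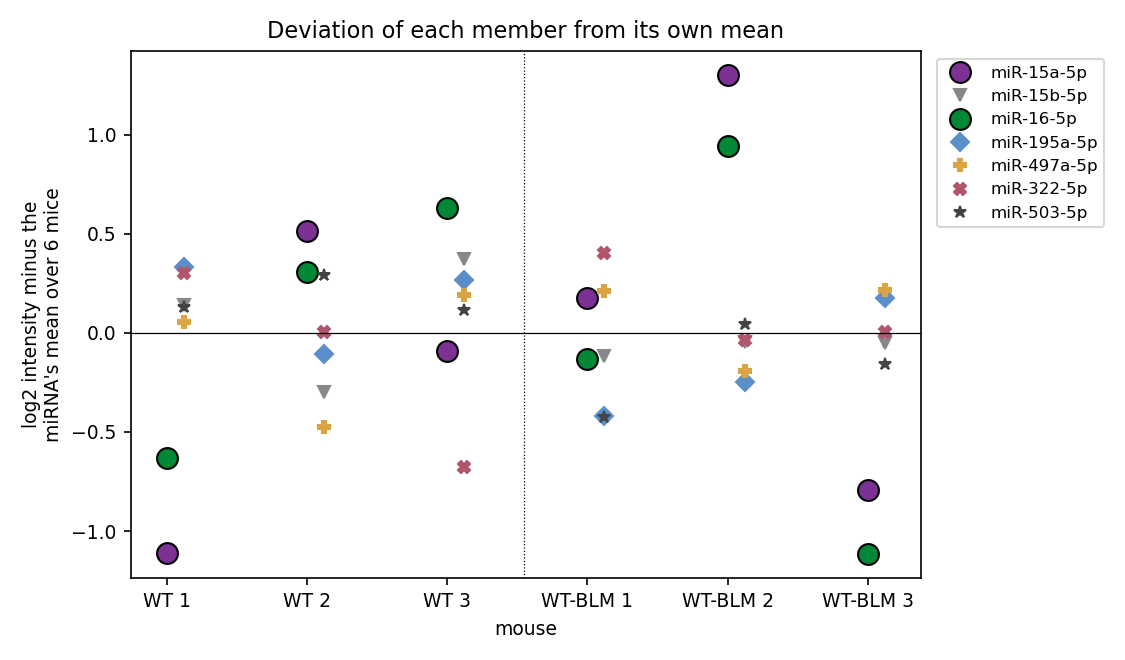
Log2 intensity of each member minus its own mean over 6 mice (vertical axis), for each mouse (horizontal axis, WT left and WT-BLM right of the dotted line). The large circles of miR-15a-5p and miR-16-5p lie far from 0 on the same side in WT mouse 1 and WT-BLM mouse 3 (below) and in WT-BLM mouse 2 (above), while the 5 others stay closer to 0 in these mice.

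The distance between miR-15a-5p and miR-16-5p was also compared, since the chromosome 14 transcript holds both hairpins. The log2 intensity of miR-15a-5p minus that of miR-16-5p was -2.84, -2.16 and -3.08 without BLM and -2.05, -2.001 and -2.04 with BLM. Every WT-BLM mouse was above every untreated WT mouse, and the change was 0.66. The SD was 0.48 among the untreated WT mice and 0.03 among the WT-BLM mice, but this contrast rests on the normalization, as the SDs were 0.27 and 0.25 without normalization between arrays and 0.36 and 0.21 with cyclic loess. Of the 6 pairs of members compared, 2 had differences that did not overlap between the groups, beside 5.64% of all pairs of tested probes, which share probes and are not independent. For miR-15a-5p and miR-16-5p the groups overlapped in 2 of 16 other settings, which were log2 values without any offset. There WT mouse 2 stood at -2.35 and WT-BLM mouse 3 at -2.43 on the authors' intensities, and at -2.35 and -2.36 on the spot intensities above the empty spots. With 50 added to the authors' intensities the groups did not overlap. Not all 16 settings could change the outcome, since scaling to the 75th percentile and no normalization give the same differences within an array. Leaving out discordant spots did not alter this pair, and the omission of a mouse can hardly make separate groups overlap. The change lay between 0.46 and 0.90 over the 16 settings. The pair was picked from 6 after its values were known, and no test is given.

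The second such pair was miR-497a-5p and miR-195a-5p of chromosome 11, a cluster known to restrain the cell cycle. On the log2 scale miR-195a-5p stood at 12.97, 12.53 and 12.90 without BLM and 12.22, 12.39 and 12.81 with BLM, a log2 fold change of -0.33 (standard error 0.25, 95% interval -0.92 to 0.27, adjusted p = 1 in limma). WT-BLM mice 1 and 2 were below the untreated range and WT-BLM mouse 3 was inside it. On the array of WT-BLM mouse 1 the spots of miR-195a-5p read 5666 and 2741 above the empty spots, so that its value there is less certain, and the log2 fold change was -0.19 without that mouse, -0.51 without WT-BLM mouse 3 and -0.13 without normalization between arrays. The log2 intensity of miR-497a-5p was 10.25, 9.72 and 10.39 without BLM and 10.40, 10.004 and 10.41 with BLM, a log2 fold change of 0.15 (standard error 0.26, 95% interval -0.46 to 0.77, adjusted p = 1 in limma) that was -0.05 without WT mouse 2. Here the groups overlapped and the spots of each array nearly coincided, with a largest difference of 0.07 on the log2 scale. The difference of miR-497a-5p minus miR-195a-5p was -2.72, -2.81 and -2.51 without BLM and -1.82, -2.39 and -2.40 with BLM, a change of 0.48. Without normalization between arrays the change was 0.34 and the groups overlapped, as they did under scaling to the 75th percentile, with cyclic loess and on the authors' values. Without WT-BLM mouse 1 the change was 0.28. WT mouse 2, in which the muscle miRNAs were highest, was the lowest untreated mouse for miR-195a-5p, miR-497a-5p and miR-15b-5p, and the part of muscle RNA in these values was not tested.

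For the chromosome 3 pair, the log2 fold change of miR-15b-5p was -0.14 (standard error 0.24, 95% interval -0.71 to 0.42, adjusted p = 1 in limma). All 3 WT-BLM mice lay within the range of the untreated WT mice, whose values are given above. The interval covers 0.612-fold to 1.34-fold, and without WT mouse 3 the log2 fold change was 0.0049. The difference of miR-15b-5p minus miR-16-5p ranged over 2.05 on the log2 scale across the 6 mice and the groups overlapped.

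The X chromosome pair gave means on opposite sides of 0. The log2 intensity of miR-322-5p, the mouse counterpart of human miR-424, was 10.16, 9.87 and 9.19 without BLM and 10.26, 9.83 and 9.86 with BLM. The groups overlapped, and the lowest value was that of WT mouse 3. On that array its spots read 192 and 590 above the empty spots, and this is the only probe and array of the members with a spot difference above 1 on the log2 scale (1.37). The log2 fold change was 0.25 (standard error 0.31, 95% interval -0.47 to 0.96, adjusted p = 1 in limma). It was -0.03 without the discordant spots and -0.04 without WT mouse 3, so that its direction rests on that array.

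On the log2 scale miR-503-5p stood at 7.42, 7.58 and 7.41 without BLM and 6.87, 7.34 and 7.13 with BLM. The highest treated value was below the lowest untreated one, and the exact two-sided permutation p was 0.10, the smallest that 3 against 3 mice can give. The log2 fold change was -0.36 (standard error 0.22, 95% interval -0.87 to 0.16, adjusted p = 1 in limma), which covers 0.545-fold to 1.12-fold. The probe was dim. It was detected on 4 of 6 arrays, but not on the noisy arrays of WT mouse 3 and WT-BLM mouse 1, which gave the lowest value of each group. Its spots read 117 and 122, 143 and 147, and 100 and 42.4 above the empty spots in the untreated WT mice and 72.1 and 49.8, 130 and 119, and 60.8 and 59.99 in the WT-BLM mice. Before normalization WT-BLM mouse 2 was therefore within the untreated range, and the groups overlapped without normalization between arrays and under scaling to the 75th percentile. In the authors' normalized intensities the values were 93, 105 and 95 without BLM and 54, 77 and 53 with BLM, without overlap. The difference of miR-322-5p minus miR-503-5p was 2.74, 2.29 and 1.78 without BLM and 3.39, 2.49 and 2.73 with BLM, so that the groups overlapped with a change of 0.60. The tested miRNAs most like miR-503-5p over the 6 arrays were miR-143-3p (r = 0.81) and miR-351-5p (r = 0.81), the latter from the same X chromosome cluster. Under the alternatives the r of miR-503-5p with miR-351-5p lay between 0.75 and 0.95, but that with miR-143-3p between 0.30, on the authors' intensities, and 0.82, so that this likeness rests on the normalization. Of the smooth muscle and mesenchyme miRNAs, to which miR-143-3p belongs, 4 of 4 were tested and each had a lower mean with BLM after quantile normalization, though without normalization between arrays miR-145a-5p and miR-199a-3p, at 0.13 each, had a higher one. The summed linear signal was 26133 to 33797 without BLM and 20319 to 27510 with BLM, and their part in the miR-503-5p values was not tested. Within this sum, miR-143-3p stood at 11.64 on the noisy array of WT-BLM mouse 1, against 13.55 and 13.59 in WT-BLM mice 2 and 3. The authors' intensities for WT-BLM mice 1, 2 and 3 were 11946, 10614 and 12271. Its log2 fold change was -0.88 after quantile normalization and -0.24 on the authors' intensities.

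The other arms and neighbours from the same loci were described from a list of 18 probes. Of these, 4 passed the detection filter, 14 did not, and 8 were detected on no array. None of the 4 had an adjusted p under 0.05 in limma, nor an unadjusted p under 0.05. Each had a lower mean in WT-BLM lungs, as had 120 of all 275 tested miRNAs. For miR-16-2-3p, the passenger arm of the chromosome 3 copy of miR-16, the values were 7.09, 6.96 and 8.45 without BLM and 6.64, 7.39 and 7.25 with BLM, a log2 fold change of -0.40 with a standard error of 0.43. This direction rests on the noisy array of WT mouse 3, since the other untreated values lay within the range of the WT-BLM mice. For miR-16-1-3p, the passenger arm of the chromosome 14 copy, the probe was detected on 1 array only, that of WT-BLM mouse 2, the mouse in which miR-16-5p was highest. Its value there was 7.14, and the higher 7.94 in WT mouse 3 did not pass detection on that noisy array. The arm miR-15a-3p was detected on no array and miR-15b-3p on 2, both of WT-BLM mice, although the highest value of miR-15b-3p was 7.15 in WT mouse 3, again not detected on that noisy array.

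On the X chromosome, miR-322-3p stood at 7.04, 7.78 and 8.28 without BLM and 6.85, 7.67 and 7.51 with BLM, a log2 fold change of -0.36 (standard error 0.38). It was detected on 4 of 6 arrays, and its highest value, in WT mouse 3, did not pass detection on that noisy array. The neighbour miR-351-5p had a log2 fold change of -0.29 (standard error 0.23) and was detected on 5 of 6 arrays, and miR-450a-5p one of -0.03 (standard error 0.23). The remaining cluster members, miR-542 and miR-450b arms among them, were detected on at most 1 array each. On chromosome 11, neither miR-195a-3p nor miR-497a-3p was detected on any array.

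**Figure D5:**
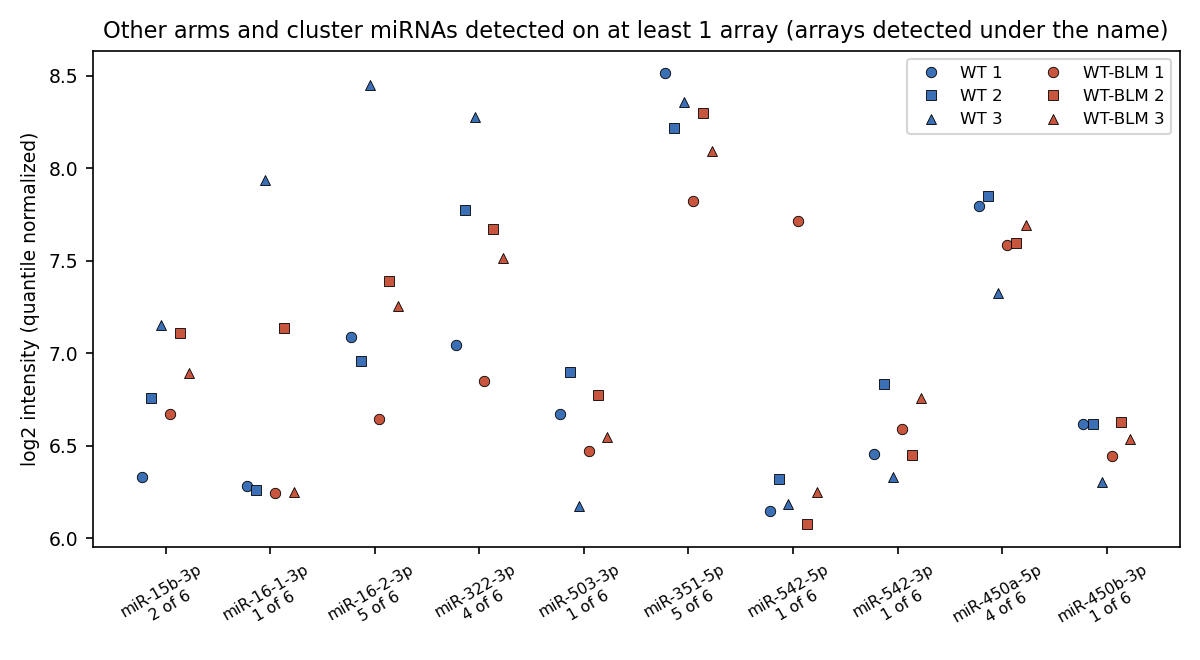
Log2 intensity (vertical axis) in each of 3 untreated WT (blue) and 3 WT-BLM mice (red) for the 10 of 18 other arms and cluster miRNAs that were detected on at least 1 array, with the number of arrays under each name. WT mouse 3 was highest for miR-15b-3p, miR-16-1-3p, miR-16-2-3p and miR-322-3p, and the values of both groups overlap for the 4 miRNAs that were tested.

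The letters AGCAGC, starting at base 1 or 2 of the mature miRNA, were searched among all probes as a wider definition of the family. They were found in 15 of 1963 array miRNAs, or 0.764%, which are the 7 members and 8 others. Of these 8, 2 passed the detection filter. Normalized values of miR-103-3p were 10.75, 10.21 and 10.52 without BLM and 10.31, 10.61 and 10.59 with BLM, which gave a log2 fold change of 0.01 with a standard error of 0.24. For miR-107-3p, which differs from miR-103-3p by G22C, the log2 fold change was 0.25 (standard error 0.24). Both are known for roles in insulin signalling and are encoded within pantothenate kinase genes. Neither had an adjusted p under 0.05 in limma.

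Of the other 6, which did not pass the filter, 4 were detected on no array and miR-1907 and miR-6419 on 1 each. From these 6, 2 with long stretches equal to a member are shown, with the seed in capitals. They bear on how well the probes separate similar sequences.
mmu-miR-195b: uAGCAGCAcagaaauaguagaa
mmu-miR-6353: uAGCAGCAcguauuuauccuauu
The first 16 bases of miR-195b equal those of miR-195a-5p, and the changes after them are U17G, G19A and C21A. Its probe was detected on no array, with log2 intensities of 5.95 to 6.14, while miR-195a-5p was detected on all 6. Likewise miR-6353 equals miR-16-5p over the first 12 bases and was detected on no array. For miR-16-5p and miR-195a-5p, whose 2 differing bases lie inside the sequence, mutual binding was not tested. The difference of miR-16-5p minus miR-195a-5p ranged over 2.48 on the log2 scale across the mice, beside a range of 2.06 for miR-16-5p alone.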

How the data were processed

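Lung RNA of 3 untreated WT and 3 WT-BLM mice was hybridized to arrays with 1 dye by a service provider. Median spot intensities, uncorrected for background, were deposited by the authors for 5022 spots per array. They also deposited normalized intensities on a linear scale, rounded to whole numbers, whose normalization method is not given in the sources used here. Their log2 and the values computed here correlated per array with r = 0.974 to 0.996 across 116 probes, which are not independent.

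Spot intensities were processed with limma 3.58.1 in R 4.3.3. Normexp background correction with an offset of 50, fitted on all spots, was followed by removal of control spots, quantile normalization on the log2 scale and averaging of the 2 spots of a probe. An offset of 50 shrinks fold changes of dim probes. Probes detected on at least 3 arrays entered lmFit and eBayes, and p-values were adjusted by the Benjamini-Hochberg method over all 275. Exact permutation tests were two-sided. The steps were tested on simulated data. The members, the lists of arms, relatives and cell type markers, and the rule for like miRNAs (the 2 highest correlations over 6 arrays) were chosen with earlier results of these data known. Groups and mouse numbers came from the sample titles. Deviations from the group means correlated at 0.16, 0.03 and 0.07 in same-numbered mice, so that no pairing was used. Alternatives comprised 13 other settings and the omission of each mouse, with 2 settings, and the readings without an offset and relative to the median of all tested miRNAs, added after the data had been seen. The authors' intensities were used as log2 after adding 50, except where no offset is stated. No slide or scan is named in the files, so that no batch was tested. The number of arrays limits the precision.
The study's methods call the WT mice littermates, no label ties a mouse to a litter, and the p-values measure the spread between these mice. Sequences and loci come from RefSeq (GRCm38.p6).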

Additional observations from a re-analysis of the deposited data

How the results depend on the processing

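Across the 13 other settings, which include the methods' t-test, the 6 omissions of a mouse and the 2 settings added after the data had been seen, the lowest adjusted p of any member was 0.69 (miR-503-5p), and the number of tested miRNAs with an adjusted p under 0.05 was 0 in each. The log2 fold changes of miR-503-5p (-0.67 to -0.24) and miR-195a-5p (-0.51 without WT-BLM mouse 3 to -0.13 without normalization between arrays) kept their sign in every setting that tested them. Several settings could not change the sign, as they return the same log2 fold changes for both. These are no filter, detection by a robust SD, the replicate block, the methods' t-tests and discordant spots left out. Scaling to the 75th percentile, which moved the median of all tested miRNAs from 0.04 to -0.22, turned miR-497a-5p to -0.075 and miR-322-5p to -0.0015 and put the median of the members at -0.32, and relative to that shift neither changed direction. With discordant spots left out miR-322-5p was at -0.031. Array weights turned miR-15b-5p, and with it the median of the members, to 0.019, and with probes detected on all 6 arrays, which leaves out miR-503-5p, the median was 0.0059. Without the arrays of WT mouse 3 and WT-BLM mouse 1 together, miR-15b-5p was at 0.044, miR-16-5p at 0.054, miR-322-5p at -0.20 and the median at 0.044.

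Over the omissions of single mice the log2 fold change of miR-15a-5p lay between -0.077 (without WT-BLM mouse 2) and 0.95, that of miR-16-5p between -0.71 and 0.30 (positive without WT-BLM mouse 3 and, at 0.073, without WT mouse 3), that of miR-15b-5p between -0.31 and 0.0049 (without WT mouse 3), that of miR-497a-5p between -0.045 (without WT mouse 2) and 0.29, that of miR-322-5p between -0.037 (without WT mouse 3) and 0.46, and the median of the members between -0.16 and 0.087 (without WT-BLM mouse 3), with 0.0049 without WT mouse 3. The cause was not tested.

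The number of tested miRNAs with an unadjusted p under 0.05, 5 in limma, was 8 under scaling to the 75th percentile and cyclic loess, 46 without a filter, 1 with probes detected on all 6 arrays, 14 with array weights, 16 without both noisy arrays, 12 with detection by a robust SD, and 1 to 20 over the omissions of single mice. With the replicate block it was 8 in limma and 9 in the methods' paired t-test. In this balanced design the block leaves the log2 fold changes as they are.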
